A study of Mus musculus with 6 samples.

Results

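The genes described here encode the subunits of the proteasome, the factors that assemble it, and its alternative caps and inhibitor. They were taken as all protein-coding genes whose symbol starts with Psma, Psmb, Psmc, Psmd, Psme, Psmf or Psmg and a digit, without the immunoproteasome genes Psmb8, Psmb9 and Psmb10 and without pseudogene names. That rule gave 47 genes of the 53379 gene identifiers in each count table, of which 21865 are protein-coding. RNA-seq measured their transcripts in Min6, a cell line from a mouse insulinoma (a tumour of insulin-producing beta cells). In 3 libraries the cells carried lentiCRISPR v2, a lentiviral vector for Cas9 and a guide RNA (gRNA), with a gRNA against JunD (gene Jund), a transcription factor of the AP-1 family. In the 3 libraries set against them, the same vector held a gRNA against the Rosa26 locus, which served as the negative control. All 6 cultures were at passage 28, were harvested 8 days after transduction, and had spent the last 30 hours under glucolipotoxic conditions, so both groups carry Cas9 and this stress. The labels leave unstated if each replicate had its own transduction and if the cells were pools or clones. The p-values therefore reflect the spread among these libraries, which may be technical.

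The proteasome degrades proteins that carry ubiquitin chains. Its core particle is a barrel of stacked rings: the outer alpha rings form the gate, and the inner beta rings hold the catalytic sites. A regulatory particle caps the barrel; its base contains the ATPases that unfold a substrate, and its lid removes the ubiquitin chain. Dedicated chaperones build the rings, and other caps can replace the regulatory particle. Beta cells make large amounts of secretory protein, and misfolded chains from the endoplasmic reticulum are returned to the cytosol and degraded by the proteasome.

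Of the 47 genes, 45 had enough counts to be tested. The 2 that did not were Psma8, an alpha subunit of the testis, with 4 counts in JunD gRNA replicate 1 and 0 in the other 5 libraries, and Psmb11, a beta subunit of the thymus, with 6, 3 and 0 counts in JunD gRNA libraries, against 0, 2 and 0 in Rosa26 gRNA libraries. The 45 comprise the 14 subunits of the core particle, 17 of the regulatory particle, 7 assembly factors, 5 alternative caps or inhibitors, and 2 genes that share only the name pattern. Together they held 3662, 3744 and 3746 CPM (read counts scaled to a common library total) in JunD gRNA libraries, against 3583, 3632 and 3547 CPM in Rosa26 gRNA libraries. Every JunD gRNA library lay above every Rosa26 gRNA library in this sum. In bulk RNA, fewer cells of a type and less RNA per cell cannot be told apart.

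Totals ran from 41071566 to 50024931 counts per library. Jund itself had 22.6, 25.1 and 26.9 CPM in JunD gRNA libraries, against 39.3, 34.5 and 30.4 CPM in Rosa26 gRNA libraries. Its log2 fold change was -0.47 ± 0.11 (SE) with all 6 libraries, short of the threshold (edgeR quasi-likelihood test, p adjusted by Benjamini-Hochberg = 0.417), and -0.38 ± 0.08 with 5, without Rosa26 gRNA replicate 1, where it passed (adjusted p = 0.00773). The beta-cell genes Ins2 and Iapp were abundant in every library (Iapp at 13190 CPM or more), while Slc2a2 was at 27.45 to 35.43 CPM. Ins2, Pdx1, Nkx6-1 and Mafa were higher in each JunD gRNA library than in any Rosa26 gRNA library, as were 11.6% of all genes tested. Mafa had 273.4, 274.5 and 337.6 CPM in JunD gRNA libraries, against 171.6, 220.1 and 208.1 CPM in Rosa26 gRNA libraries. The groups overlapped for Ins1, Slc2a2, Iapp and G6pc2. A link to the proteasome genes was not tested. Ins2 was at 21950 CPM in Rosa26 gRNA replicate 1 and at 45930 CPM or more in the other 5 libraries. Of the markers of other cell types, Hhex, Cpa1, Prss2, Ptprc and Cdh5 were at 0.0800 CPM or less in every library. Gcg, Krt19 and Ppy were detected in all 6 libraries at 10.1 to 686 CPM, and Sst, Cd68, Pecam1, Col1a1 and Col1a2 at 0.599 to 8.23 CPM; their part in the results was not tested. Rosa26 gRNA replicate 1 stood apart: it lay at 62.1 on a first principal component that held 45.8% of the variance, the other 5 between -22.5 and -6.09. Its deviations from the mean of all libraries had a Spearman's rho of -0.51 with the GC content of the transcript across genes, while rho was between 0.02 and 0.42 in the other 5. Test results are therefore given with all 6 libraries and with the 5 other libraries; the labels name no batch.

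With all 6 libraries, edgeR called 0 of 17767 genes at an adjusted p under 0.05 (0% higher and 0% lower), and so 0 of the 45 proteasome genes. At an unadjusted p under 0.05, 962 genes were higher (5.41%) and 1157 lower (6.51%), among them 4 proteasome genes higher and 1 lower. DESeq2 called 20 genes higher (0.113%) and 47 lower (0.265%), and limma-voom 0; neither called a proteasome gene. With the 5 libraries, 266 of 18296 genes were higher (1.45%) and 257 lower (1.4%). Of these, 3 are proteasome genes, all higher in JunD gRNA cells: the beta-ring subunits Psmb4 and Psmb6 and the lid subunit Psmd3. They make up 6.67% of the 45, against the 1.45% of all genes, and 0 of the 45 were lower, against 1.4%. All of their log2 fold changes were small, the largest 0.21. At an unadjusted p under 0.05, 7 of the 45 were higher and 1 lower, against 8.31% and 7.59% of all genes.

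**Figure D1:**
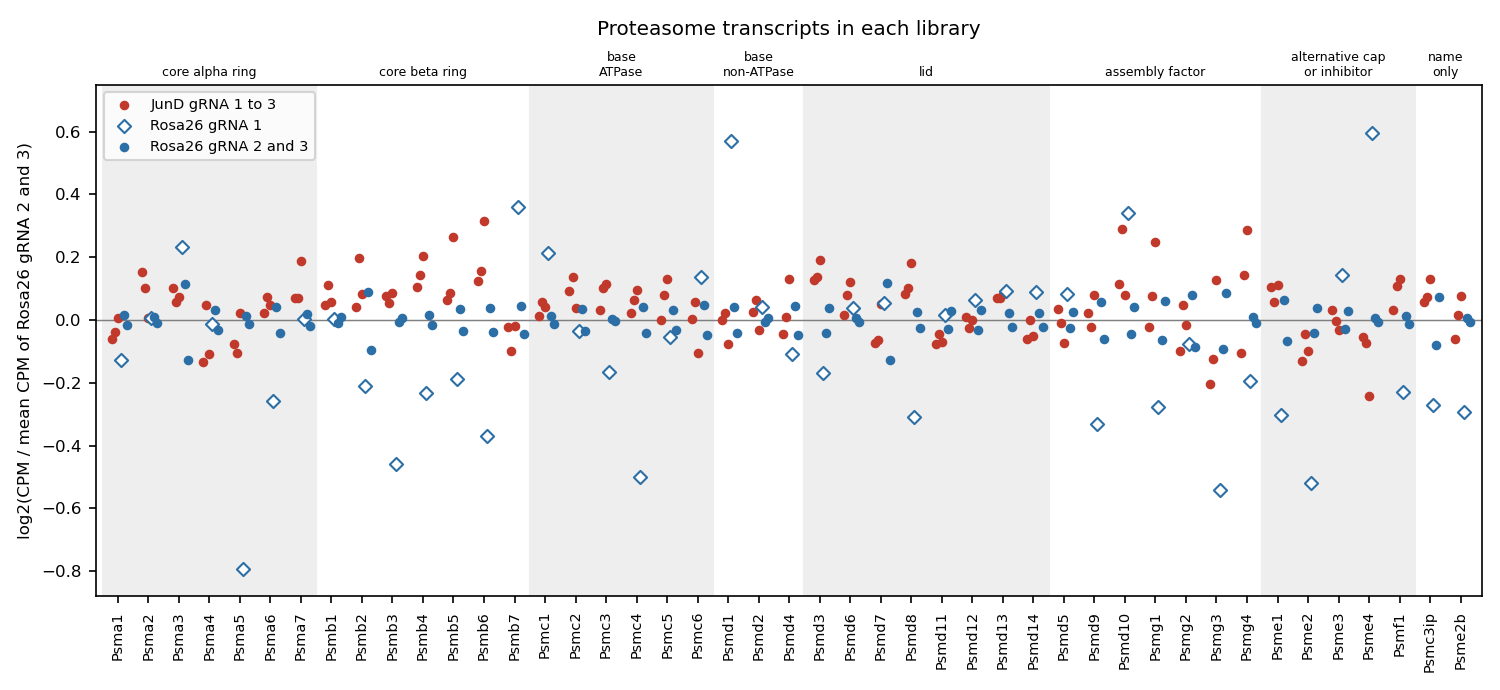
Each point is the log2 ratio of a gene's CPM in 1 library to its mean CPM in Rosa26 gRNA replicates 2 and 3 (vertical axis), for the 45 tested genes ordered by role (horizontal axis, grey and white bands); red points are the 3 JunD gRNA libraries, open diamonds Rosa26 gRNA replicate 1 and blue points Rosa26 gRNA replicates 2 and 3. Most JunD gRNA points of the beta ring lie above 0, and the open diamonds are the lowest point in 24 of the 45 genes and the highest in 12.

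The beta ring carries the catalytic sites, and here 5 of its 7 subunits (Psmb1, Psmb3, Psmb4, Psmb5 and Psmb6) were higher in each JunD gRNA library than in any Rosa26 gRNA library. Over the 45 genes, 11 were separated in that direction (24.4%) and 2 in the other, against 11.6% and 12.8% of all genes tested. Psmb6, at chromosome 11 from 70525367 to 70527858 on the plus strand (GRCm38, the assembly that mm10 names), encodes the caspase-like subunit, with 4 exonic blocks. Psmb6 had 126, 129 and 144 CPM in JunD gRNA libraries, against 89.7, 119 and 113 CPM in Rosa26 gRNA libraries. The groups did not overlap, and Rosa26 gRNA replicate 1 was the lowest library by a wide margin. Its log2 fold change was 0.33 ± 0.11 (SE) with 6 libraries (adjusted p = 0.417, edgeR quasi-likelihood test) and 0.21 ± 0.05 with 5 (adjusted p = 0.0345), where it was called.

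Psmb4, a structural subunit of the beta ring without catalytic activity, maps to chromosome 3 from 94884093 to 94886961 on the minus strand and has 7 exonic blocks. It had 182, 187 and 195 CPM in JunD gRNA libraries, against 144, 171 and 168 CPM in Rosa26 gRNA libraries. All 3 JunD gRNA libraries were higher than all 3 Rosa26 gRNA libraries. Its log2 fold change was 0.24 ± 0.08 with 6 libraries (edgeR, adjusted p = 0.417) and 0.16 ± 0.04 with 5 (adjusted p = 0.0489), so it passed narrowly with 5.

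The other catalytic subunits did not pass in either fit. Psmb5, which encodes the chymotrypsin-like subunit (chromosome 14 from 54614119 to 54618022 on the minus strand, 3 exonic blocks), had 34.6, 35.2 and 39.9 CPM in JunD gRNA libraries, against 29.1, 34.003 and 32.3 CPM in Rosa26 gRNA libraries. The groups did not overlap, but JunD gRNA replicate 1 and Rosa26 gRNA replicate 2 were close. The log2 fold change of Psmb5 was 0.22 ± 0.10 with 6 libraries and 0.15 ± 0.07 with 5 (edgeR, adjusted p = 0.419 and 0.299). With the correction for GC content and transcript length described further on it was -0.0066 with 6 libraries and 0.05 with 5. Psmb7, which encodes the trypsin-like subunit, had 54.3, 51.6 and 54.4 CPM in JunD gRNA libraries, against 70.8, 56.9 and 53.5 CPM in Rosa26 gRNA libraries. It was the only beta subunit with a negative log2 fold change (-0.16 ± 0.10 with 6 libraries, -0.04 ± 0.06 with 5), the groups overlapped, and Rosa26 gRNA replicate 1 was its highest library. Of its exonic bases, 11.8% overlap Nek6 on the opposite strand, and with no strand setting stated the reads of both genes cannot be told apart there. Psmb1, Psmb2 and Psmb3 had log2 fold changes of 0.09, 0.19 and 0.22 with 6 libraries and of 0.08, 0.11 and 0.08 with 5, and none passed.

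None of the 7 subunits of the alpha ring passed in either fit. They had a median log2 fold change of 0.10 with 6 libraries and 0.05 with 5, against 0.22 and 0.11 for the 7 of the beta ring and -0.0064 and -0.0030 for all genes tested. The difference between the rings was not tested. After the correction on 6 libraries the order was the other way round, with 0.105 for the alpha ring and 0.0861 for the beta ring. After the same correction on 5 libraries the beta ring was again the higher, with 0.0730 against 0.0392 for the alpha ring. Psma7 was the only alpha subunit whose groups did not overlap. It had 106, 106 and 115 CPM in JunD gRNA libraries, against 101, 102 and 99.2 CPM in Rosa26 gRNA libraries. With the correction by longest transcript, the log2 fold change of Psma7 was -0.08 with 6 libraries and 0.04 with 5. By principal transcript it was 0.01 and 0.08. Uncorrected, it was 0.13 ± 0.07 and 0.12 ± 0.05. The highest fold change with 6 libraries belonged to Psma5, with 7.94, 7.79 and 8.5 CPM in JunD gRNA libraries, against 4.84, 8.46 and 8.3 CPM in Rosa26 gRNA libraries. Rosa26 gRNA replicate 1 was far below the other 5 libraries. The log2 fold change of Psma5 was 0.18 ± 0.20 with that library and -0.05 ± 0.11 without it, so its sign rests on that library. The lowest belonged to Psma4, with 44.8, 50.9 and 45.7 CPM in JunD gRNA libraries, against 48.8, 50.4 and 48.1 CPM in Rosa26 gRNA libraries, and overlapping groups (-0.04 ± 0.08 and -0.06 ± 0.06). Psma2 had 71.7, 69.4 and 64.9 CPM in JunD gRNA libraries, against 64.9, 65.05 and 64.1 CPM in Rosa26 gRNA libraries, and was called solely after a correction described further on.

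In the base of the regulatory particle, the 6 ATPases Psmc1 to Psmc6 had a median log2 fold change of 0.11 with 6 libraries and 0.07 with 5, and none passed in either fit. Psmc4 had the highest, with 129, 132 and 135 CPM in JunD gRNA libraries, against 89.6, 130.2 and 123 CPM in Rosa26 gRNA libraries. Here 1 control library made most of the difference: the log2 fold change was 0.22 ± 0.13 with Rosa26 gRNA replicate 1 and 0.07 ± 0.05 without it. Psmc6 had the lowest, with 70.3, 73.1 and 65.3 CPM in JunD gRNA libraries, against 77.2, 72.5 and 67.9 CPM in Rosa26 gRNA libraries, and its groups overlapped (-0.04 ± 0.08 and -0.01 ± 0.05). Psmc2 and Psmc3 were the ATPase genes whose groups did not overlap, both higher in JunD gRNA cells; Psmc2 had 153, 158 and 148 CPM in JunD gRNA libraries, against 140.2, 147 and 140.3 CPM in Rosa26 gRNA libraries (0.12 ± 0.06 and 0.09 ± 0.04).

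The base subunits that are not ATPases had a median log2 fold change of 0.02 in both fits. Psmd1, a scaffold of the base, had 137, 139 and 129.97 CPM in JunD gRNA libraries, against 204, 141 and 133 CPM in Rosa26 gRNA libraries. Rosa26 gRNA replicate 1 was far above the other 5 libraries, whose groups overlapped, and the log2 fold change was -0.22 ± 0.14 with that library and -0.01 ± 0.05 without it. Psmd4, a ubiquitin receptor, had 96.2, 99.996 and 109 CPM in JunD gRNA libraries, against 92.1, 102 and 96.1 CPM in Rosa26 gRNA libraries, with overlapping groups (0.08 ± 0.08 and 0.04 ± 0.05). Psmd2, also a scaffold, had log2 fold changes of 0.02 and 0.02.

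The lid had 1 subunit that passed. Psmd3, a structural lid subunit (chromosome 11 from 98682554 to 98695979 on the plus strand, 10 exonic blocks), had 203, 205 and 213 CPM in JunD gRNA libraries, against 166, 181 and 192 CPM in Rosa26 gRNA libraries. Each JunD gRNA library was higher than every Rosa26 gRNA library. This gave a log2 fold change of 0.22 ± 0.08 with 6 libraries (edgeR, adjusted p = 0.417) and 0.16 ± 0.04 with 5 (adjusted p = 0.0469). Psmd8 had the highest fold change of the lid with 6 libraries and did not pass: its 93.01, 94.4 and 99.8 CPM in JunD gRNA libraries, against 71, 89.4 and 86.4 CPM in Rosa26 gRNA libraries, gave 0.23 ± 0.10 with 6 libraries and 0.13 ± 0.05 with 5. Psmd11 had the lowest, with 58.2, 59.5 and 58.3 CPM in JunD gRNA libraries, against 61.9, 60.1 and 62.5 CPM in Rosa26 gRNA libraries. Its groups did not overlap, lower in JunD gRNA cells, yet the log2 fold change was only -0.05 ± 0.07. Psmd14, the deubiquitinase of the lid, and Psmd6, Psmd7, Psmd12 and Psmd13 had log2 fold changes between -0.05 and 0.08 with 6 libraries and did not pass.

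None of the 7 assembly factors passed or had groups apart. Psmg1 and Psmg2 chaperone the formation of the alpha ring, as do Psmg3 and Psmg4, while Psmd5, Psmd9 and Psmd10 chaperone that of the base. Psmg1 had 17.2, 18.4 and 20.8 CPM in JunD gRNA libraries, against 14.4, 16.8 and 18.2 CPM in Rosa26 gRNA libraries (0.21 ± 0.12 with 6 libraries, 0.11 ± 0.09 with 5), the highest fold change of the class with 6. Psmd5 had the lowest, with 45.3, 43.97 and 42.1 CPM in JunD gRNA libraries, against 46.8, 43.5 and 45.01 CPM in Rosa26 gRNA libraries (-0.03 ± 0.07 and -0.01 ± 0.06). In both genes the ranges of the groups overlapped. The class median was 0.11 with 6 libraries and 0.03 with 5.

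The alternative caps and the inhibitor had log2 fold changes of either sign, and none of the 5 passed in either fit. Psme4, a large cap of the core particle that works without ATP (chromosome 11 from 30771726 to 30880361 on the plus strand, 50 exonic blocks), had 149, 147 and 131 CPM in JunD gRNA libraries, against 234, 155 and 154 CPM in Rosa26 gRNA libraries. The groups did not overlap, lower in JunD gRNA cells, and Rosa26 gRNA replicate 1 was far above the rest. Its log2 fold change of -0.33 ± 0.14 was the lowest of the 45 and shrank to -0.12 ± 0.05 without that library, and it passed in neither fit (edgeR, adjusted p = 0.417 and 0.23). Psme1, which with Psme2 forms a cap induced by interferon, had 37.8, 36.6 and 38.04 CPM in JunD gRNA libraries, against 28.5, 36.8 and 33.6 CPM in Rosa26 gRNA libraries, and overlapping groups (0.20 ± 0.10 and 0.10 ± 0.06). Psme3, the subunit of a nuclear cap, had -0.03 and 0.00. Psmf1, an inhibitor of the core particle in vitro, had 0.18 and 0.10, with groups that did not overlap.

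The 2 genes that match the name pattern alone were Psmc3ip, which acts in meiotic recombination, and Psme2b, a gene of 1 exonic block that is nearly identical to Psme2. Psmc3ip had 24.7, 24.9 and 25.9 CPM in JunD gRNA libraries, against 19.6, 22.4 and 24.9 CPM in Rosa26 gRNA libraries (0.19 ± 0.11 and 0.09 ± 0.07). Psme2b had 46.1, 48.7 and 50.8 CPM in JunD gRNA libraries, against 39.3, 48.3 and 47.9 CPM in Rosa26 gRNA libraries (0.12 ± 0.10 and 0.02 ± 0.06). The groups overlapped for both, and neither passed. Of the exonic bases of Psmc3ip, 21.2% overlap Mlx on the opposite strand, and such overlaps also cover 25.5% of Psmd9 (with Gm26745), 10.1% of Psmd13 (with Sirt3) and 8.25% of Psmc3 (with Slc39a13).

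The core particle and the regulatory particle were set against each other as a whole. The 14 core genes had a median log2 fold change of 0.13 and the 17 regulatory genes one of 0.06 with 6 libraries, against -0.0064 for all genes, and 12 of the 14 and 10 of the 17 were above 0, as were 48.9% of all genes. With 5 libraries the medians were 0.08 and 0.04, and 10 of the 14 and 11 of the 17 were above 0, as were 49.2% of all genes. The mean log2 CPM of the core genes was 5.86, 5.88 and 5.92 in JunD gRNA libraries, against 5.64, 5.85 and 5.79 in Rosa26 gRNA libraries. That of the regulatory genes was 6.79, 6.82 and 6.83 in JunD gRNA libraries, against 6.74, 6.78 and 6.75 in Rosa26 gRNA libraries. On both scores each JunD gRNA library was above each Rosa26 gRNA library, though for the regulatory genes the gap between JunD gRNA replicate 1 and Rosa26 gRNA replicate 2 was small.

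The difference between the scores, core minus regulatory, shows how the balance of the particles varied. It was -0.93, -0.94 and -0.91 in JunD gRNA libraries, against -1.09, -0.94 and -0.96 in Rosa26 gRNA libraries. Rosa26 gRNA replicate 1 was low and the other 5 libraries lay close together; JunD gRNA replicate 2 and Rosa26 gRNA replicate 2 had nearly the same value. The mean was -0.924 ± 0.0131 in JunD gRNA libraries and -0.996 ± 0.0843 in Rosa26 gRNA libraries (SD, n = 3 each), a difference of 0.07, and it was 0.02 without Rosa26 gRNA replicate 1. No test was made of a score over genes that were chosen with earlier results of these data known.

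**Figure D2:**
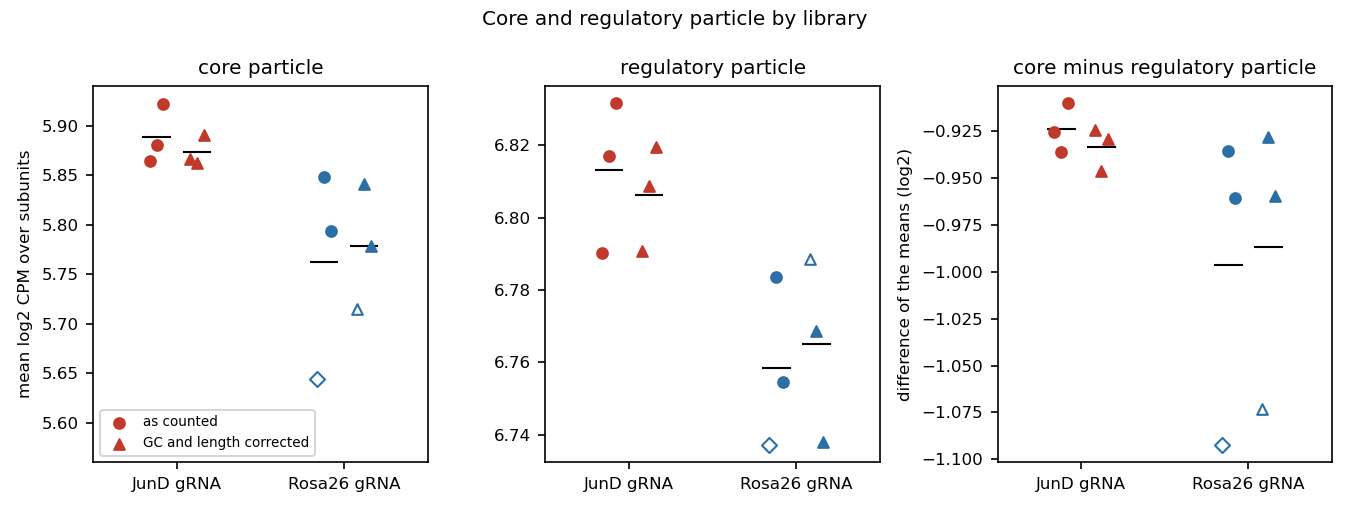
The panels show the mean log2 CPM over the 14 core subunits, over the 17 regulatory subunits, and their difference (vertical axes, cut to the range of the data), for the 3 JunD gRNA and 3 Rosa26 gRNA libraries (horizontal axes). Circles and the diamond are values as counted, triangles values corrected for GC content and length, open symbols are Rosa26 gRNA replicate 1, and black bars are group means; in the third panel the open symbols lie at -1.09 and -1.07, far below the other libraries.

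Fold changes of these genes varied with the base composition of their transcripts. Across the 45 genes, Spearman's rho of the log2 fold change with GC content was 0.68 with 6 libraries and 0.41 with 5, and with length -0.50 and -0.21 (a description across genes that share the same libraries). The core genes have shorter transcripts, with a median of 1162.5 bases for the annotation's principal transcript against 1636 bases for the regulatory genes, and a median GC content of 48.9% against 49.7%. The median log2 ratio of Rosa26 gRNA replicate 1 to the mean of the other 5 libraries was -0.23 over core genes and -0.0055 over regulatory genes. It was the lowest library for 8 and the highest for 2 of the 14 core genes, and the lowest for 7 and the highest for 6 of the 17 regulatory genes. Among the 5 other libraries a weaker trend with GC content was left across all genes: rho was 0.06, 0.03 and 0.29 in JunD gRNA libraries, against -0.18 and -0.24 in Rosa26 gRNA replicates 2 and 3. The GC content of the 3 called transcripts was 52.2% for Psmb4, 55.8% for Psmb6 and 58.3% for Psmd3.

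Correcting for GC content and transcript length changed which proteasome genes passed with 5 libraries. With each gene's longest transcript it called 265 genes higher (1.45%) and 240 lower (1.31%), with Psma2, Psmb6 and Psmc2 higher among the 45 genes. Psma2 had a corrected log2 fold change of 0.17 ± 0.05 (edgeR, adjusted p = 0.0496), Psmb6 one of 0.17 ± 0.04 (0.0281) and Psmc2 one of 0.16 ± 0.04 (0.0162). Psmb4 and Psmd3 had 0.12 ± 0.04 and 0.12 ± 0.04 after correction and no longer passed (0.0676 and 0.0821). When the correction used each gene's principal transcript in place of its longest, 257 genes were higher (1.4%) and 244 lower (1.33%), and Psma2 and Psmb4 passed (0.0254 and 0.0485), and Psmb6 and Psmc2 did not (0.117 and 0.129). With the first correction and 5 libraries the core and regulatory medians were 0.06 and 0.05, and 36 of the 45 genes were above 0, as were 51.7% of all genes. On 6 libraries the corrections called 11 genes higher (0.0619%) and 17 lower (0.0957%), or 12 (0.0675%) and 19 (0.107%) by principal transcript, none of them a proteasome gene. The sign of several genes, none of them called, differed in at least 1 corrected fit from that in the uncorrected fit on 6 libraries. Among them were Psma1, Psma5, Psma7, Psmb5, Psmb7, Psmc6, Psmd1, Psmd4, Psmd5, Psmd11, Psmg3 and Psme2b. The values of Psma2 and Psmc2 in every library were given above because of these calls, after their values were seen.

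**Figure D3:**
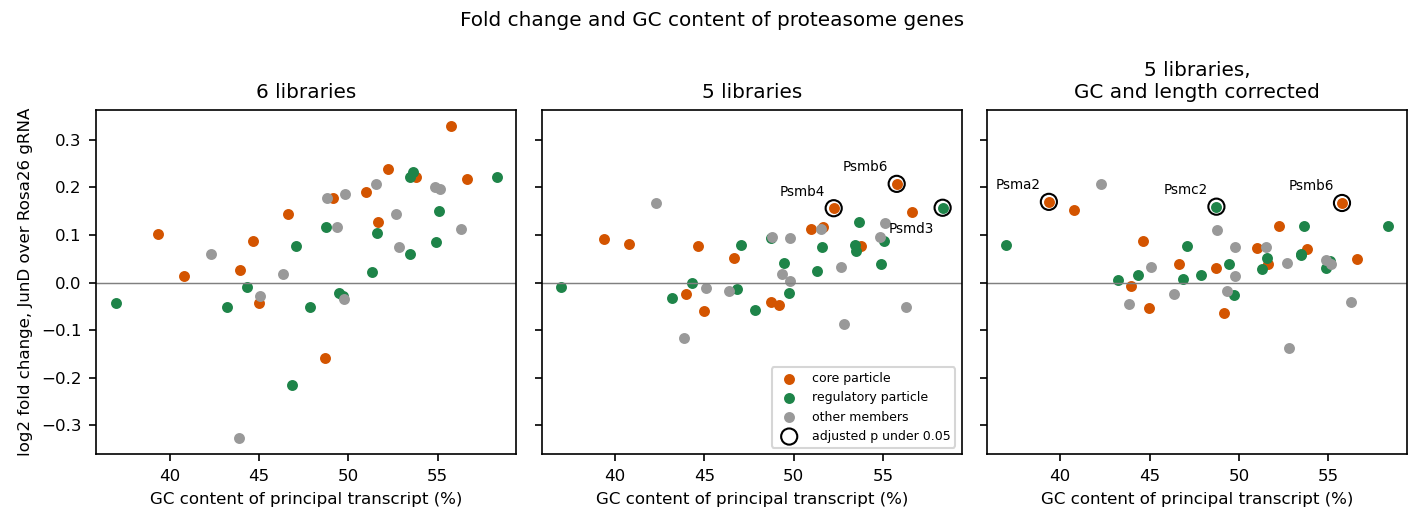
Each point is 1 of the 45 genes, placed by the GC content of its principal transcript in percent (horizontal axis) and its log2 fold change of JunD gRNA over Rosa26 gRNA (vertical axis), with orange for the core particle, green for the regulatory particle and grey for the rest; black rings mark an adjusted p under 0.05. The slope is steepest with 6 libraries (rho 0.68), flatter without Rosa26 gRNA replicate 1 (rho 0.41), and the ringed genes after correction include Psma2 at a GC content of 39.4%.

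The spread between libraries bounds what could be seen at this scale. The median SD of log2 CPM over the 45 genes was 0.05 in JunD gRNA libraries and 0.13 in Rosa26 gRNA libraries, and 0.04 between Rosa26 gRNA replicates 2 and 3. The 11336 genes of the same range of levels had 0.07, 0.14 and 0.04. JunD gRNA replicate 3, the library with the strongest positive trend with GC content, was the highest library for 21 of the 45 genes. A link between these was not tested. Counts of the lowest or highest library, here and above, were made over proteasome genes only, so the share over all genes is not known.

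Transcript levels differed widely, also among core subunits, which the particle holds in equal number. Per kilobase of the principal transcript, Psmb6 had 167 ± 12.03 CPM per kilobase in JunD gRNA libraries and 134 ± 19.3 in Rosa26 gRNA libraries (SD, n = 3 each). Psmb4 had 159 ± 5.49 in JunD gRNA libraries and 136 ± 12.4 in Rosa26 gRNA libraries. By this length these 2 genes led in both groups, and their ranges over the libraries overlapped. A difference between the 2 genes within libraries was not tested. The lowest of the 45 was Psmg3, which encodes a chaperone of the alpha ring. Psmg3 had 4.31, 4.55 and 5.42 CPM in JunD gRNA libraries, against 3.41, 4.66 and 5.27 CPM in Rosa26 gRNA libraries, with overlapping groups; its level was 5.39 ± 0.663 CPM per kilobase in JunD gRNA libraries and 5.03 ± 1.07 in Rosa26 gRNA libraries. The lowest core subunit was Psma5, at 6.52 ± 0.303 CPM per kilobase in JunD gRNA libraries and 5.81 ± 1.65 in Rosa26 gRNA libraries.

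The highest core subunit was thus 25.6 times the lowest in JunD gRNA libraries and 23.4 times in Rosa26 gRNA libraries. The identifier of Psma5, the lowest, held only 12.6% of the counts over it and its near-identical copies, so these ranges depend on how such reads were assigned. In the regulatory particle the range was 5.39 and 5.12 times, from Psmd11 to Psmd2. The ATPases lay within 2.95 and 2.61 times of each other and the other base subunits within 2.55 and 2.16 times. The assembly factors were low as a class, with a median of 14.21 CPM per kilobase in JunD gRNA libraries and 12.99 in Rosa26 gRNA libraries, against 53.3 and 54.8 for the core particle. The order depends on the length used: Psma7 ranked 4 of 45 in Rosa26 gRNA libraries by its principal transcript and 16 by all its exonic bases, while Psmb6 ranked 2 and 6 and Psmb4 was the highest by both.

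**Figure D4:**
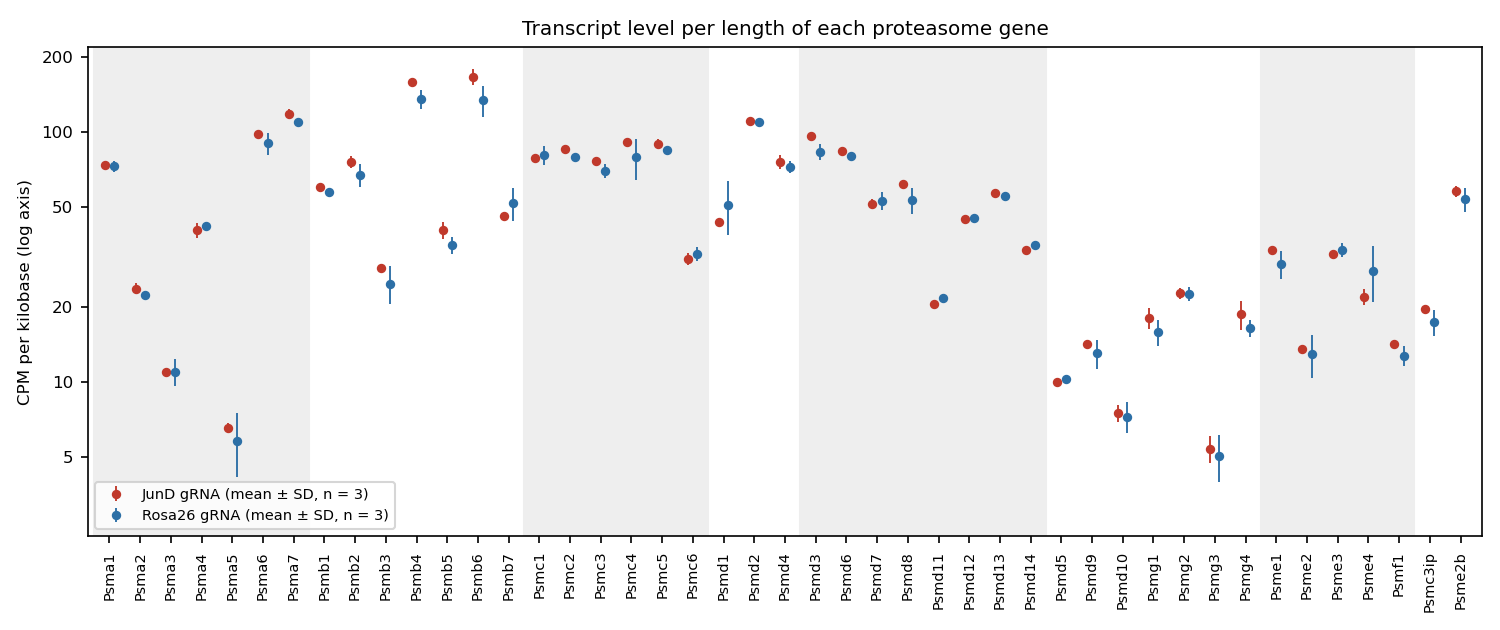
Points are the mean level per length of each of the 45 genes (vertical axis, CPM per kilobase of the principal transcript, log axis) with bars of 1 SD over 3 libraries, in red for JunD gRNA and blue for Rosa26 gRNA; genes run along the horizontal axis by role, as grey and white bands. Psmb6 and Psmb4 are the highest, Psma5 and Psmg3 the lowest, and the groups lie close together in every class.

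Some of these genes have near-identical copies elsewhere in the genome. Copies with 95% identity or more over at least 200 bases and with counts of their own were found for 9 of the 45 genes. Protein-coding genes were not taken as copies, except Psme2b as a copy of Psme2. The share of the summed counts that lay under the gene's own identifier was 12.6% for Psma5, 21.3% for Psme2, 31.5% for Psma3, 49.5% for Psmb5, 54.3% for Psmb3 and 73.7% for Psma4, and 87.8% to 96.5% for Psmd2, Psmc1 and Psmd11. Psma5 had 332, 320 and 422 counts in JunD gRNA libraries, against 210, 423 and 397 in Rosa26 gRNA libraries, while its copies Gm8394 and Gm12989 together had 2356, 2176 and 2866 in JunD gRNA libraries, against 1933, 2733 and 2570 in Rosa26 gRNA libraries. The copies held more counts than the gene in all 6 libraries. Which locus these reads came from cannot be told apart from counts, since the sources used here do not say how reads that match several places were treated.

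How alike these loci are can be read from a stretch of 120 bases at the same place in each coding sequence, printed from GENCODE M21 on GRCm38, 5′ to 3′, with capitals in the gene where either copy differs and in a copy where it differs from the gene. Psma5 (chr3:108256926-108279974, plus strand) differs from Gm8394 (chr10:85313488-85314439, plus strand) at 1 of these 120 bases and from Gm12989 (chr4:135715868-135716598, minus strand) at 2; Psme2 (chr14:55587441-55591113, minus strand) differs from Psme2b (chr11:48945354-48946190, minus strand) at 2.
Psma5: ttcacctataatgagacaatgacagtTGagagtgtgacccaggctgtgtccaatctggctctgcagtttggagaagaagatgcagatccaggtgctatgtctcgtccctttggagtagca
Gm8394: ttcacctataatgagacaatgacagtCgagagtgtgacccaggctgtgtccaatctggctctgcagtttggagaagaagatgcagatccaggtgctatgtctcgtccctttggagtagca
Gm12989: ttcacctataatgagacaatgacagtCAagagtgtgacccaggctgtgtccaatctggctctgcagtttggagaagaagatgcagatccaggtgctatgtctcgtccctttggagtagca
Psme2: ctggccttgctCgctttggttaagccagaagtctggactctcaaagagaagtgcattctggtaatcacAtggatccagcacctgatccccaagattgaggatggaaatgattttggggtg
Psme2b: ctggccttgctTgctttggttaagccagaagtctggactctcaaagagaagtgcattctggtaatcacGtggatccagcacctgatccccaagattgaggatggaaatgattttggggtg

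Adding the counts of the copies to their gene moved single fold changes but no call. With copies added, Psma5 had a log2 fold change of 0.15 ± 0.11 with 6 libraries and 0.03 ± 0.05 with 5, Psmb5 0.27 ± 0.11 and 0.19 ± 0.07, and Psme2 0.11 ± 0.11 and -0.01 ± 0.05. Psmb5, with its copy Gm3375, did not pass with 5 libraries (edgeR, adjusted p = 0.131). Psmb4, Psmb6 and Psmd3, which have no such copy with counts, were the 3 genes called.

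**Figure D5:**
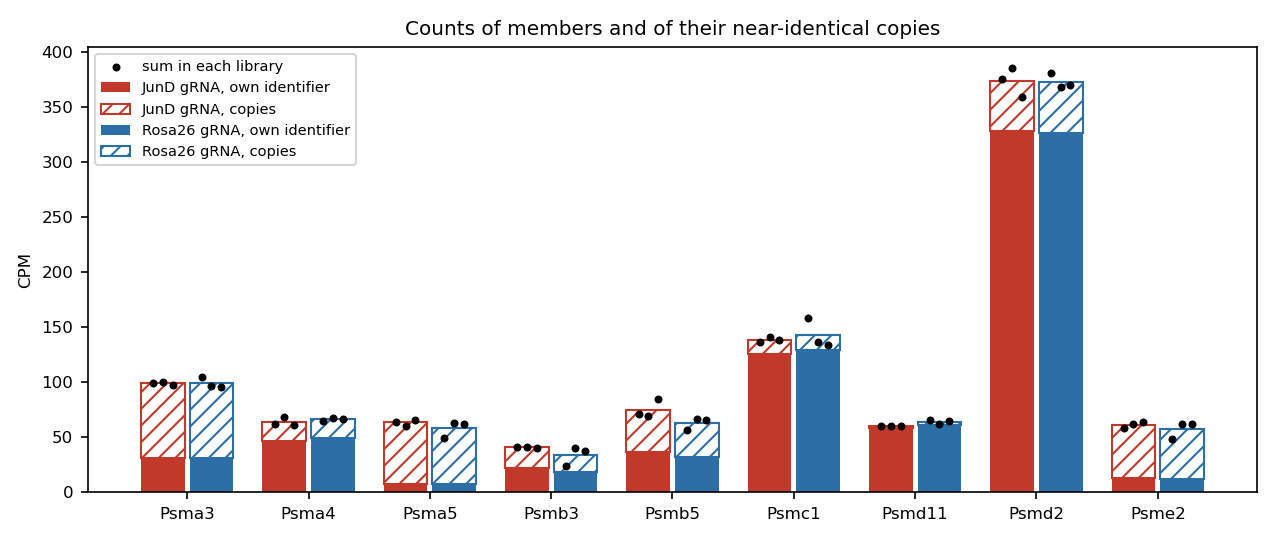
Bars are the mean CPM under the gene's own identifier (solid) and under its near-identical copies (hatched, stacked on top) over 3 JunD gRNA libraries (red) and 3 Rosa26 gRNA libraries (blue), for the 9 genes on the horizontal axis; black points are the sum in each library. For Psma5, Psme2 and Psma3 the hatched part is the larger one, and it is a small part for Psmd2, Psmc1 and Psmd11.

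The promoters of these genes were searched for letters that resemble the sites of AP-1 factors. RefSeq promoters (GRCm38.p6, 250 bases before to 50 after the start) were available for 39 of the 47 genes, 42 promoters in all. The genes without one, which were not searched, include the catalytic subunit Psmb7 and the called lid subunit Psmd3. The AP-1-like letters TGANTCA, where N admits any base, were in 2 of the 42 (4.76%), against 7.81% of 32851 promoters, on either strand. They were in the promoters of Psmb5, as TGAATCA, and Psmd9. The related letters TGACGTCA were in 0 of the 42, against 1.79%. The letters TGACNNNGC, which resemble the antioxidant response element bound by Nfe2l1 and Nfe2l2, were in 6 of the 42 (14.3%), those of Psmb5, Psmb6, Psmc6, Psmd9, Psmd12 and Psme4, against 12.4% of all. A match of letters is a description and no evidence of binding.

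The promoters of the catalytic subunits Psmb5 (chr14:54617946-54618245, minus strand) and Psmb6 (chr11:70525107-70525406, plus strand) are shown because they hold these letters, in capitals. In Psmb5 the first run of capitals matches TGACNNNGC and the second, downstream of the annotated start, matches TGANTCA; in Psmb6 the capitals match TGACNNNGC.
Psmb5 promoter: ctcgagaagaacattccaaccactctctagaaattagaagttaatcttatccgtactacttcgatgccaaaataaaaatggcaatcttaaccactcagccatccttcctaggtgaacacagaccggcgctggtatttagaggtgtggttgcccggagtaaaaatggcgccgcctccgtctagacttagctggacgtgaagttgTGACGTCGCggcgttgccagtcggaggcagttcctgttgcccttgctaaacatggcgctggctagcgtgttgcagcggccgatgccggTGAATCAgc
Psmb6 promoter: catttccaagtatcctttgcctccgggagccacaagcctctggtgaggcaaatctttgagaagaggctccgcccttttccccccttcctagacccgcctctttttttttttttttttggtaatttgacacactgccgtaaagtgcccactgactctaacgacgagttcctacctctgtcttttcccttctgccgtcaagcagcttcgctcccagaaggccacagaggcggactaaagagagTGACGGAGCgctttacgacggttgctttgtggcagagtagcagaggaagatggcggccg

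Genes that work with the proteasome but carry other names gave few calls. Of 3 further subunits and assembly factors that matched a gene, 0 passed in either fit. Sem1, a small lid subunit, had 75.8, 77.5 and 81.8 CPM in JunD gRNA libraries, against 49.6, 71.5 and 67.7 CPM in Rosa26 gRNA libraries, and groups that did not overlap. Its log2 fold change was 0.33 ± 0.13 with 6 libraries and 0.18 ± 0.05 with 5 (edgeR, adjusted p = 0.0702), and it passed with 5 libraries after correction for GC content and length (0.24 ± 0.05, adjusted p = 0.00399). Pomp, which chaperones the maturation of the core particle, had 60.2, 63.2 and 64.1 CPM in JunD gRNA libraries, against 43.5, 58.97 and 56.6 CPM in Rosa26 gRNA libraries (0.25 ± 0.12 and 0.12 ± 0.05). Its groups did not overlap either. Adrm1, a ubiquitin receptor, had 20.3, 20.5 and 23.5 CPM in JunD gRNA libraries, against 16.5, 21.2 and 19.1 CPM in Rosa26 gRNA libraries, with overlap (0.19 ± 0.12 and 0.10 ± 0.08).

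The transcription factors and processing enzymes that control proteasome genes gave 0 calls of 10 in either fit, and 1 of the 10 log2 fold changes was above 0 with 6 libraries and 0 with 5, against 48.9% and 49.2% of all genes. Nfe2l1, which drives proteasome genes when proteasome activity falls short, had 545, 529 and 537 CPM in JunD gRNA libraries, against 602, 557 and 568 CPM in Rosa26 gRNA libraries. Its groups did not overlap, lower in JunD gRNA cells, but its log2 fold change of -0.08 ± 0.06 with 6 libraries and -0.06 ± 0.04 with 5 did not pass (edgeR, adjusted p = 0.536 and 0.432).

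The next 3 lists had 1 call each with 5 libraries, where 1.45% of all genes were called higher and 1.4% lower, and 0 with 6. Among 13 proteasome-associated factors, 1 passed with 5 libraries. It was Zfand2a, a stress-induced protein that binds the proteasome, with 98.3, 97.9 and 93.2 CPM in JunD gRNA libraries, against 121, 116 and 119.8 CPM in Rosa26 gRNA libraries. Every JunD gRNA library was lower than every Rosa26 gRNA library, Rosa26 gRNA replicate 1 lay with its own group, and the log2 fold change was -0.28 ± 0.06 with 6 libraries and -0.28 ± 0.05 with 5 (edgeR, adjusted p = 0.417 and 0.00102). With 6 libraries it passed in DESeq2 (adjusted p = 0.0248) and in edgeR after correction for GC content and length (0.0487). Of 11 tested genes that deliver ubiquitin-tagged proteins, the shuttle factor Ubqln2 alone passed with 5 libraries, higher in JunD gRNA cells. It had 247, 249.6 and 251 CPM in JunD gRNA libraries, against 234, 219 and 211 CPM in Rosa26 gRNA libraries (0.19 ± 0.06 and 0.22 ± 0.04, adjusted p with 5 libraries 0.00345 in edgeR), without overlap. Of 6 genes for ubiquitin and its activation, the polyubiquitin gene Ubb passed with 5 libraries. It had 865, 941 and 1029 CPM in JunD gRNA libraries, against 616, 846 and 819 CPM in Rosa26 gRNA libraries, again without overlap (0.33 ± 0.13 and 0.19 ± 0.05, adjusted p with 5 libraries 0.0336 in edgeR).

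The immunoproteasome genes, whose products replace the catalytic subunits of the core particle after interferon, were low and gave 0 calls of 3 in either fit. Psmb8, the counterpart of Psmb5, had 5.24, 7.18 and 5.1 CPM in JunD gRNA libraries, against 4.81, 6.5 and 5.85 CPM in Rosa26 gRNA libraries. Psmb9, the counterpart of Psmb6, had 4.26, 4.07 and 5.04 CPM in JunD gRNA libraries, against 2.1, 4.08 and 4.12 CPM in Rosa26 gRNA libraries. Psmb10, the counterpart of Psmb7, had 10.3, 10.01 and 11.4 CPM in JunD gRNA libraries, against 9.47, 11.9 and 9.05 CPM in Rosa26 gRNA libraries. All 3 had overlapping groups. Per kilobase, Psmb8 was at 7.06% to 11.3% of Psmb5 in JunD gRNA libraries and at 9.14% to 10.6% in Rosa26 gRNA libraries, Psmb9 at 1.86% to 2.06% of Psmb6 in JunD gRNA libraries and 1.38% to 2.15% in Rosa26 gRNA libraries, and Psmb10 at 16.8% to 18.6% of Psmb7 in JunD gRNA libraries and 11.8% to 18.5% in Rosa26 gRNA libraries.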

How the data were processed

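The authors deposited 1 table of raw read counts per gene for each of the 6 libraries, with 53379 Ensembl gene identifiers. Per the submitters' processing notes, TopHat2, featureCounts and the mm10 build were used. The sources used here do not give their versions, the annotation release, the strand setting or how reads that match several places were treated. Total RNA was isolated with a column kit and made into Illumina libraries, per the labels' protocols.

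Symbols were matched without the identifier's version for 53274 identifiers; coordinates, biotypes and GC content came from GENCODE M21 on GRCm38. JunD gRNA was compared with Rosa26 gRNA in all genes by the quasi-likelihood test of edgeR 4.0.16 (R 4.3.3), two-sided, with TMM scaling, low counts removed by filterByExpr and no covariate. Its p-values were adjusted by Benjamini-Hochberg over all tested genes, with a threshold of 0.05. An approximate SE was taken as the size of the log2 fold change over the square root of F. Log2 CPM scores used a prior count of 2. The correction for GC content and transcript length removed from each library a spline of its log2 deviations (5 degrees of freedom). Copies were found with blastn 2.17.0. The procedure was checked on simulated counts.

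The members and gene lists were chosen with earlier results of these data known. Values in every library are given for the catalytic beta subunits, genes past the threshold in the fit on 6 or 5 libraries, the extremes of each role class and of the level per length, and for fixed genes outside the name pattern. Alternatives tried were other normalizations, DESeq2 1.42.0, limma-voom (limma 3.58.1), other count filters, the replicate number as a block and each library left out; the correction by principal transcript and the added copies were chosen after seeing the data. Depth was 41071566 to 50024931 counts per library. Every pair of libraries differed by more than sampling noise (chi-square per degree of freedom 3.26 or more). No file or library was left out of the main comparison.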

Additional observations from a re-analysis of the deposited data

How the results depend on the processing

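With 6 libraries, 0 genes were higher and 0 lower in edgeR, and those counts moved with the tool: 20 higher and 47 lower in DESeq2, 11 and 17 with the correction for GC content and length, 12 and 19 with that by principal transcript, 33 and 53 without a count filter, and 131 and 162 in limma-voom with sample weights. None of these called a proteasome gene. Leaving out 1 library at a time gave 0 to 266 genes higher, 0 to 257 lower and 0 to 3 proteasome genes higher, all nonzero counts coming without Rosa26 gRNA replicate 1. On those 5 libraries the counts were 340 and 286 in DESeq2, 280 and 249 with RLE size factors, 292 and 296 in limma-voom, 266 and 257 with copies added, 265 and 240 with the GC and length correction and 257 and 244 with that by principal transcript. Proteasome genes called were 3, 3, 3, 3, 3 and 2 in these settings, and Psmb4, Psmb6 and Psmd3 in each but the 2 corrected ones. The regulatory median of 0.06 became 0.0105 with the correction, 0.0215 with that by principal transcript and 0.0338 with sample weights. The core minus regulatory median of 0.08 was 0.0148 on 5 libraries with the correction.

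Signs turned for several genes, none of them called. Psma5 had -0.04 to -0.06 without Rosa26 gRNA replicate 1 in 6 settings (-0.0443, -0.0639, -0.0573, -0.0440, -0.0439 and -0.0461) and -0.0329 with sample weights. Psmg3 had -0.0509 without that library, -0.0501 (DESeq2), -0.0488 (RLE), -0.0509 (copies), -0.0451 (limma-voom), -0.0400 and -0.145 (corrected), -0.0665 with sample weights and -0.0933 with the principal-transcript correction on 6 libraries. Psmb8 had -0.0809 without it, -0.0773 (DESeq2), -0.0789 (RLE), -0.0810 (copies), -0.104 (limma-voom), -0.0901 and -0.128 (corrected), -0.0472 with sample weights, -0.0295 and -0.102 with the corrections on 6 libraries, and -0.128 without JunD gRNA replicate 2. Leaving out 1 library at a time gave -0.0461 to 0.311 for Psma5, -0.0509 to 0.261 for Psmg3 and -0.128 to 0.144 for Psmb8. Psmc6 had 0.0030 with sample weights. Among the other genes with printed library values, the remaining reversals came with the correction, by longest or principal transcript, on 6 libraries or 5. In these, Psma7 had -0.0840, Psmb5 -0.0066 and -0.0101, Psmb7 0.0021 and 0.0298, and Psmc6 0.151, 0.197, 0.0792 and 0.100. Psmd1 had 0.0080 and 0.0179, Psmd11 0.110 and 0.0165, Psmd4 -0.0727 and -0.0130, and Psmd5 0.0725, 0.0982, 0.0329 and 0.0433. Psme2b had -0.0166 and -0.0141, Adrm1 -0.0219 and -0.0028, and Psmb10 -0.122, -0.115, -0.0575 and -0.0520. Without Rosa26 gRNA replicate 1 and with no correction, Psme2 (0.07 with 6 libraries), Psma1 (0.03), Psmg2 (0.02), Psmc1 (-0.02) and Psme3 (-0.03) had -0.09, -0.02, -0.02, 0.04 and 0.0031. The cause was not tested.

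Same-numbered libraries had correlations of 0.06, -0.04 and 0.07 in their deviations from the group means, and the others had -0.10 to 0.07. Rosa26 gRNA replicate 1 stood apart and enters the mean of its group, and so the deviations of all Rosa26 gRNA libraries. This check could therefore hardly show a pairing, and whether the libraries are paired stays unknown. With the replicate number as a block, 0 genes and 0 proteasome genes were called, and the core and regulatory medians were 0.14 and 0.06. Psma8 and Psmb11 had too few counts for a fold change to be given. The median SD of 0.13 (log2) between the 3 Rosa26 gRNA libraries limits what 6 libraries can show; it was 0.04 between replicates 2 and 3. The correction by principal transcript and the added copies were chosen after seeing the data.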

Other observations

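In the lists of genes that work with the proteasome, groups that did not overlap were also found outside the genes named so far, which are given here after their values were seen. Such separation was common: of all genes tested, 11.6% were separated with JunD gRNA higher and 12.8% with JunD gRNA lower. Nfe2l2, a transcription factor of the antioxidant response, had 23.7, 25.5 and 23.0 CPM in JunD gRNA libraries, against 27.99, 27.5 and 26.5 CPM in Rosa26 gRNA libraries. Its log2 fold change was -0.17 ± 0.08 (SE) with 6 libraries and -0.16 ± 0.07 with 5 and did not pass (edgeR, adjusted p = 0.419 and 0.249). Ubxn7, an adaptor of the ATPase Vcp, had 22.1, 22.5 and 19.2 CPM in JunD gRNA libraries, against 36.3, 24.3 and 24.8 CPM in Rosa26 gRNA libraries, and Ecpas, a scaffold that binds the proteasome, had 125, 129 and 114 CPM in JunD gRNA libraries, against 193, 133 and 131 CPM in Rosa26 gRNA libraries. Both had Rosa26 gRNA replicate 1 far above the other libraries and did not pass: Ubxn7 had -0.40 ± 0.15 with 6 libraries and -0.20 ± 0.08 with 5, Ecpas -0.29 ± 0.14 and -0.10 ± 0.05.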
